A study of Arabidopsis thaliana with 6 samples.

Results

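The 6 small heat-shock genes described here are AT1G53540, AT2G29500, AT1G54050, HSP22 (AT4G10250), HSP23.5 (AT5G51440) and AT1G52560. They are 6 of 13286 genes that the platform annotation pairs with a probe set of their own. They were chosen by their measured values, because small heat-shock genes led the named genes when liquid cultures were compared with callus. Differences from callus are therefore given as a description and support nothing by themselves. Each of the 6 genes has 1 probe set in that annotation.

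Small heat-shock proteins are chaperones that work without ATP. They share an alpha-crystallin domain, assemble into oligomers and hold unfolding proteins until chaperones of the HSP70 and HSP100 families refold them. Plants carry separate forms for the cytosol, nucleus, endoplasmic reticulum, mitochondria, plastids and peroxisomes. Their genes are transcribed through heat shock factors and are known to be nearly silent in unstressed vegetative tissue, to respond to heat and several other stresses, and to be active again in maturing seeds.

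The series holds 6 ATH1 arrays, 1 per condition, of Arabidopsis thaliana ecotype Ler (NW20). All material came from leaves of seedlings aged 14 to 17 days. The cultures named high differentiating were read after 2, 5 and 9 days in a liquid medium that held 0.2% sucrose with 4% mannitol and whose hormones were 0.2 mg/l auxins (2,4-D, NAA and IAA) and, as cytokinin, 1 mg/l BA. Whether 0.2 mg/l is each auxin or their sum is not stated. Those named low differentiating were read after 5 and 9 days in medium with as much sucrose and mannitol, where 0.5 mg/l 2,4-D was the auxin and 1.5 µg/l kinetin the cytokinin. Both were shaken at 105 rpm. Their common starting point, day 0, was callus kept for 2 weeks in darkness at 22 °C with 2.0% glucose, 0.5 mg/l 2,4-D and 0.05 mg/l kinetin. These media follow each sample's treatment text; the labels' growth field instead lists high-medium hormones for every one of the 6, and their extraction text describes seedlings. A temperature of 22 °C is listed for all 6 samples, and the labels name no heat treatment. Glucose and darkness, named for callus, and sucrose, mannitol and shaking, named for the liquid cultures, changed together with the hormones and the days. Their parts in any difference from callus cannot be told apart.

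With 1 array per condition no difference has a replicate check, and none is tested. A difference is called when 2 arrays differ at least 2-fold, which is a rule of size. The number of arrays limits the precision. Values are deposited intensities on a linear scale, and those below 24.7 were set to that floor before log2 was taken. Where callus lay at the floor, a ratio can only be given as "at least". Each gene is followed across arrays and never set against another gene's level, since probes differ in brightness.

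The arrays were scaled to a common level, with trimmed means of 98.8 to 99.3, and 59.3% to 61.1% of probe sets lay above the floor. Few markers of tissue identity are named in the annotation. LBD16, a transcription factor of root and callus founder cells, read 89.8 to 170 over the 6 arrays, and LHCB4.1, a chlorophyll-binding protein of leaves, read 30.9 to 65.2. Of the 3 xylem markers, GUT2 read 64.4 to 140, while IRX15 lay below the floor on 4 arrays and IRX15-L on 2 arrays. LBD29, of callus and root, and CR4 and CLV3, of epidermis and shoot meristem, lay below it on all 6. These markers do not settle which cell types the cultures held. In bulk RNA, more cells that express a gene and more RNA per cell cannot be told apart.

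All 6 genes were low in callus and high in all 5 liquid cultures. The 2 class I genes, whose proteins work in the cytosol, come first. AT1G53540 had an intensity of 9.10 in callus at day 0, then 812, 2345 and 1038 at days 2, 5 and 9 of high medium. In low medium the same gene had 2349 at day 5 and 1138 at day 9. Callus lay below the floor, and the lowest liquid culture was at least 32.9-fold above it. AT2G29500, also class I, had 22.5 in callus, then 687, 1706 and 1082 at days 2, 5 and 9 of high medium. In low medium it had 1828 at day 5 and 907 at day 9. Its callus value again lay below the floor, while each liquid culture was at least 27.8-fold higher.

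AT1G54050 encodes a class III form, a type placed in the cytosol and nucleus. Its intensity was 60.1 in callus, then 1694, 2341 and 1169 at days 2, 5 and 9 of high medium. Low medium gave 2234 at day 5 and 1064 at day 9. Here callus lay above the floor, so the ratios are measured: they ran from 17.7-fold in low medium at day 9 to 39.0-fold in high medium at day 5. AT1G54050 was the only one of the 6 genes whose day 2 value lay above both day 9 values.

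HSP22 encodes the form of the endoplasmic reticulum. The gene read 12.6 in callus, below the floor, then 222, 1011 and 451 at days 2, 5 and 9 of high medium. It read 1341 at day 5 and 513 at day 9 of low medium. Its lowest liquid value, at day 2, was at least 8.98-fold above callus, and the highest, in low medium at day 5, at least 54.3-fold.

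HSP23.5 and AT1G52560 belong to the mitochondrial forms. HSP23.5 read 61.9 in callus, then 342, 791 and 431 at days 2, 5 and 9 of high medium. Its values in low medium were 887 at day 5 and 347 at day 9. The ratios to callus, all measured, were the smallest of the 6 genes in each culture and ran from 5.52-fold in high medium at day 2 to 14.3-fold in low medium at day 5. AT1G52560 read 1.30 in callus, then 315, 1222 and 586 at days 2, 5 and 9 of high medium. In low medium it read 1517 at day 5 and 542 at day 9. Since its callus value was far under the floor, only a bound can be given, at least 12.8-fold in high medium at day 2 and at least 61.4-fold in low medium at day 5.

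**Figure D1:**
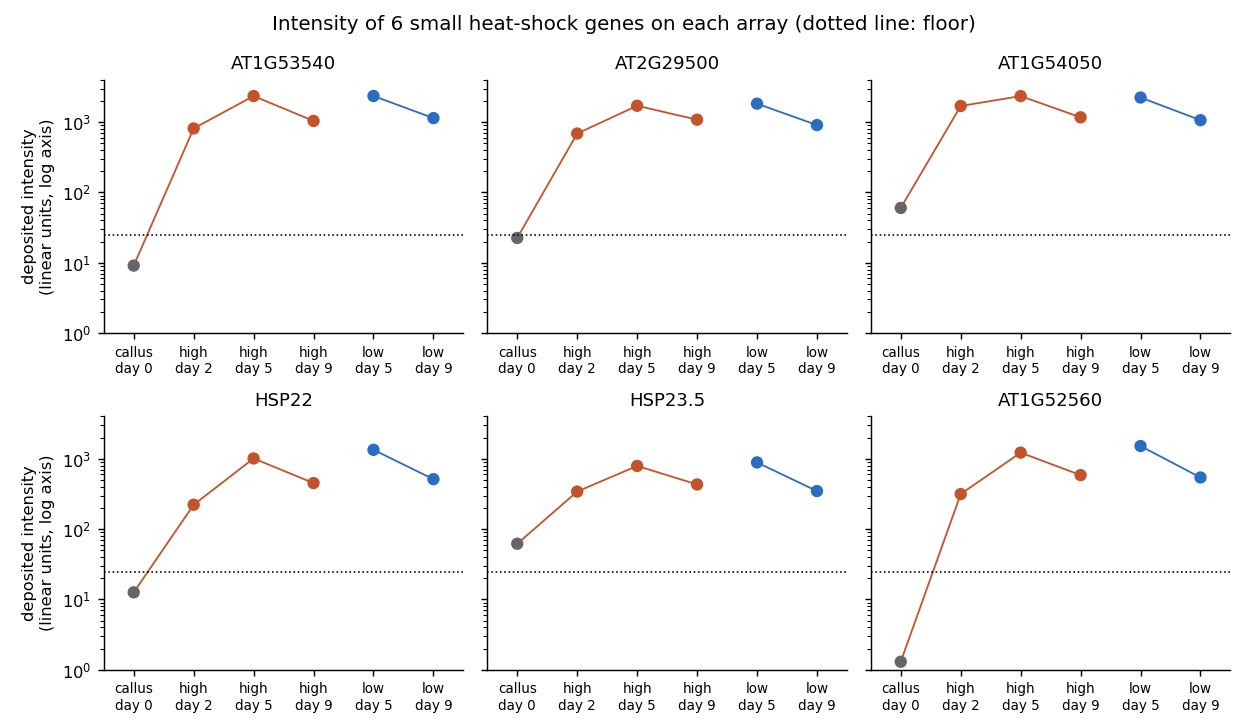
Deposited intensity of each of the 6 genes (log axis, linear units) on each of 6 arrays: callus at day 0 in grey, high medium at days 2, 5 and 9 in red, low medium at days 5 and 9 in blue; 1 point is 1 array, lines join callus with the days of high medium, and both days of low medium, and the dotted line is the floor of 24.7. Callus is the lowest point in every panel, at or below 61.9, and the day 5 points are the highest in each medium.

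All 5 ratios to callus share the same callus array, so an error on it would move all of them. Counted by the 2-fold rule, 6 of 6 genes were higher than callus in each culture. Of all 22746 probe sets that are not controls, the share past that rule upward was 1.60%, 1.84% and 1.40% at days 2, 5 and 9 of high medium. For low medium the shares were 1.97% at day 5 and 1.19% at day 9. The genes were chosen on this contrast, so nothing is read from their count. Their median log2 ratio, with genes at the floor taken at their bound, was 4.24, 5.49 and 4.42 at days 2, 5 and 9 of high medium and 5.85 and 4.42 at days 5 and 9 of low medium. The median over all probe sets with a ratio lay between -0.04 and -0.01 in these 5 comparisons.

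In all 5 cultures, with low values set to the floor, 9 probe sets were at least 16-fold higher than callus. Of these, 3 belong to the 6 genes, 1 has several genes in the annotation, 5 are unnamed here, and 0 belong to other named genes. The 6 genes were chosen on this same contrast, so their place among these probe sets supports nothing. The 16-fold cut was not among the planned rules.

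Control probes also moved between callus and liquid cultures. For the GAPDH control, signal of the 3' probes over that of the 5' probes was 1.06 to 1.15 in the liquid cultures and 0.969 in callus. For the actin control it was 1.26 to 1.45 in the liquid cultures and 1.29 in callus, which lay inside that range. The 25S ribosomal RNA control read 2517 to 3716 in liquid cultures and 2233 in callus. Their part in the difference was not tested. In comparison, 3 reference genes with steady expression stayed within narrow ranges over the 6 arrays: AT4G34270 between 190.9 and 213.5, AT2G28390 between 113.1 and 137.2, and AT4G26410 between 312.7 and 438.4.

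The levels peaked at day 5 among the days sampled. From day 2 to day 5 in high medium, 5 of the 6 genes passed the 2-fold rule upward, while 0.800% of all probe sets did. HSP22, the gene of the endoplasmic reticulum form, had the largest ratio of the 6, 1011 at day 5 against 222 at day 2, a log2 ratio of 2.19. AT1G52560, of the mitochondrial forms, had 1222 at day 5 against 315 at day 2, a log2 ratio of 1.96. The log2 ratios of the class I genes were 1.53 for AT1G53540 and 1.31 for AT2G29500, and HSP23.5 had 1.21. AT1G54050 had 2341 at day 5 against 1694 at day 2, a log2 ratio of 0.47 that did not reach 2-fold. The day 2 level of this class III gene was thus already 72.3% of its day 5 level, against 22.0% to 43.2% for the other 5 genes. The median log2 ratio of the 6 was 1.42, and that of all probe sets with a ratio was -0.0033.

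The day 5 array of high medium also had the highest spike controls. Their median over 18 probe sets was 1.69 times callus at day 5 and 1.19 times callus at day 2. Dividing each array by its spike controls, an alternative added after the data were seen, took the log2 ratio of AT1G54050, day 5 over day 2, to -0.04 and left 3 of 6 genes past 2-fold. Under that division the median of all probe sets moved to -0.48, against 0.92 for the 6 genes, and 0.207% of all probe sets passed 2-fold upward.

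At day 9 of high medium all 6 genes lay below their day 5 level, 4 of them by at least 2-fold. The share of all probe sets past that rule was 0.453%. AT1G53540 had 1038 at day 9 against 2345 at day 5, a log2 ratio of -1.18, close to HSP22 with -1.16 and AT1G52560 with -1.06. AT1G54050, at 1169 against 2341, lay just past the rule with -1.002. AT2G29500 and HSP23.5 lay short of it with -0.66 and -0.88. The median of the 6 genes was -1.03 and that of all probe sets with a ratio 0.02. The number past 2-fold depends on the scaling: it was 2 after quantile normalization or with the reference genes set equal, and 0 with the spike controls set equal, while all 6 ratios stayed below 0 under each of these. The shares of all probe sets at least 2-fold lower were then 0.484%, 0.308% and 0.0835%, in that order. With equal spike controls the median was -0.47 over the 6 genes and 0.56 over all probe sets.

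Low medium gave the same direction on other arrays. There 6 of 6 genes were at least 2-fold lower at day 9 than at day 5, against 0.444% of all probe sets. AT1G52560 had 542 at day 9 against 1517 at day 5, a log2 ratio of -1.48. HSP22 had 513 at day 9 against 1341 at day 5, and HSP23.5 had 347 against 887, with log2 ratios of -1.39 and -1.35. The 3 cytosolic genes lay close to the rule, with -1.05 for AT1G53540, -1.01 for AT2G29500 and -1.07 for AT1G54050. The median of the 6 was -1.21, and the median of all probe sets was 0.0048. With quantile normalization or equal spike controls 3 of the 6 stayed past 2-fold, all 6 still below 0. The shares of all probe sets at least 2-fold lower were 0.418% and 0.233% under these scalings.

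As a share of the day 5 level in the same medium, the day 9 level ran from 44.3% for AT1G53540 to 63.4% for AT2G29500 in high medium. In low medium it ran from 35.7% for AT1G52560 to 49.6% for AT2G29500. The 3 organelle forms had lower shares in low medium (38.2% for HSP22, 39.2% for HSP23.5, 35.7% for AT1G52560) than the 3 cytosolic ones (47.6% to 49.6%). In high medium the shares of both kinds overlapped. With 3 genes of each kind and 1 array per day, this order is a description. It does not hold for all listed small heat-shock genes. Cytosolic AT2G19310 had 249 at day 5 and 98.8 at day 9 of low medium. Its log2 ratio of -1.33 was close to the -1.35 of HSP23.5. Peroxisomal AT5G37670 (-1.86) and cytosolic AT5G47600 (68.0, then 67.1, near the background) went with the order.

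**Figure D2:**
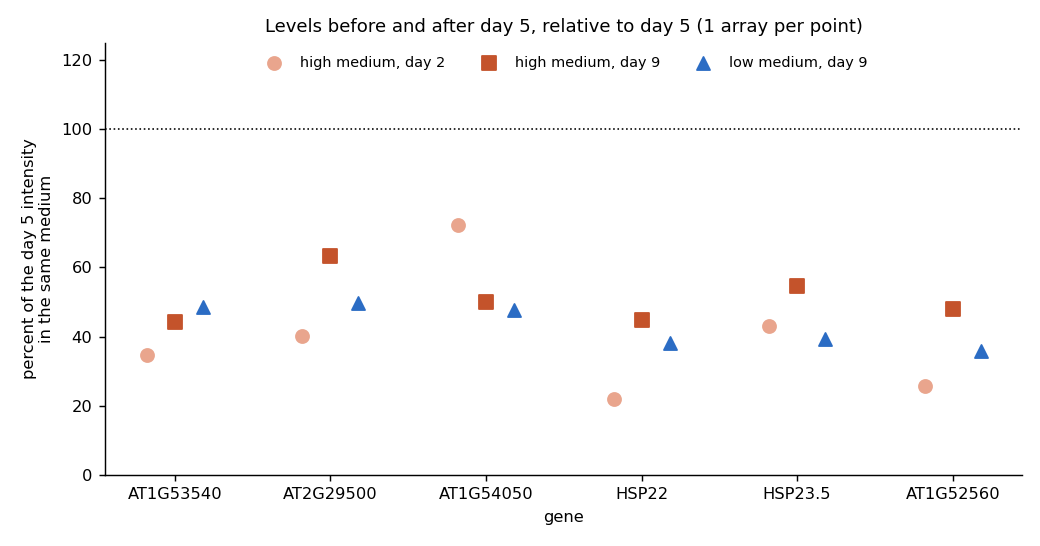
Intensity at day 2 and day 9 of high medium and day 9 of low medium as a percent of the day 5 intensity in the same medium (vertical axis, dotted line at 100%), for each of the 6 genes, 1 array per point. All points lie below 100%; AT1G54050 has the highest day 2 point, 72.3%, and HSP22 the lowest, 22.0%.

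Ordered by level, the 2 day 5 cultures stood above all others for every one of the 6 genes, and callus was last. Low medium at day 5 was first for 5 genes and high medium at day 5 for AT1G54050, but these neighbours differed little. The gap between them was 1.00-fold for AT1G53540, 1.05-fold for AT1G54050, 1.07-fold for AT2G29500 and 1.12-fold for HSP23.5. It was 1.24-fold for AT1G52560 and widest for HSP22, 1.33-fold. The 2 day 9 cultures also lay close, 1.08-fold to 1.24-fold apart. Below them came high medium at day 2, except for AT1G54050, and for HSP23.5 it was within 1.02-fold of low medium at day 9. The step between day 2 and the nearest day 9 culture reached 2.03-fold for HSP22. Each gap between media within a day is smaller than the 1.40-fold range of the reference gene AT4G26410 over the 6 arrays, so the order within a day is not settled. The steps from day 5 to the next culture, 1.32-fold to 2.09-fold, exceeded that range in all genes except AT1G54050.

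As deposited, the 6 genes differed by at most 1.33-fold between media on the same day. At day 5, 0 of the 6 genes differed 2-fold between high and low medium. The rule was passed upward in high medium by 0.765% of all probe sets and downward by 0.396%. With shares this small, nothing is read from the count of 0. AT1G53540 had 2345 in high and 2349 in low medium, a log2 ratio of -0.0026. HSP22 was furthest from 0, with 1011 in high against 1341 in low medium, a log2 ratio of -0.41. AT1G52560 had -0.31, HSP23.5 -0.16 and AT2G29500 -0.10. AT1G54050 had 0.07, a sign that turned under quantile normalization (-0.07), equal reference genes (-0.01) and equal spike controls (-0.56), and that of AT1G53540 turned with equal array medians (0.04). The median was -0.13 over the 6 genes and -0.02 over all probe sets.

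Scan background was 105.48 for low medium at day 5, above the 69.04 to 82.04 of the remaining 5 arrays. Its part in the day 5 values was not tested. Equal spike controls gave the 6 genes a median of -0.76 at day 5, and 1 gene, HSP22, passed the 2-fold rule with -1.03. The median of all probe sets was -0.61 under that scaling, under which high medium was higher by 2-fold or more for 0.176% of them and lower for 4.54%.

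At day 9, again 0 of 6 genes differed 2-fold between media, with 0.264% of all probe sets higher and 0.149% lower in high medium. Nothing is read from this count either. HSP23.5 had 431 in high against 347 in low medium, a log2 ratio of 0.31, and AT2G29500 had 1082 against 907, a ratio of 0.25. AT1G54050 and AT1G52560 had 0.13 and 0.11, while AT1G53540 had -0.13 and HSP22 -0.18. The positive ratios of AT2G29500, AT1G54050 and AT1G52560 turned negative with equal spike controls (-0.0063, -0.13 and -0.15). The median was 0.12 over the 6 genes and -0.0053 over all probe sets. The reference genes spanned -0.16 to 0.42 between media at day 5 and -0.20 to 0.07 at day 9, which gives a scale for ratios of this size. In size, all 6 ratios at day 5 were under the 0.42 of AT4G26410, while at day 9 HSP23.5 and AT2G29500 went past the -0.20 of AT2G28390. At day 5 AT4G34270 and AT2G28390 had -0.158 and -0.018. HSP22 (-0.41), AT1G52560 (-0.31) and HSP23.5 (-0.165) went past both of these in size.

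**Figure D3:**
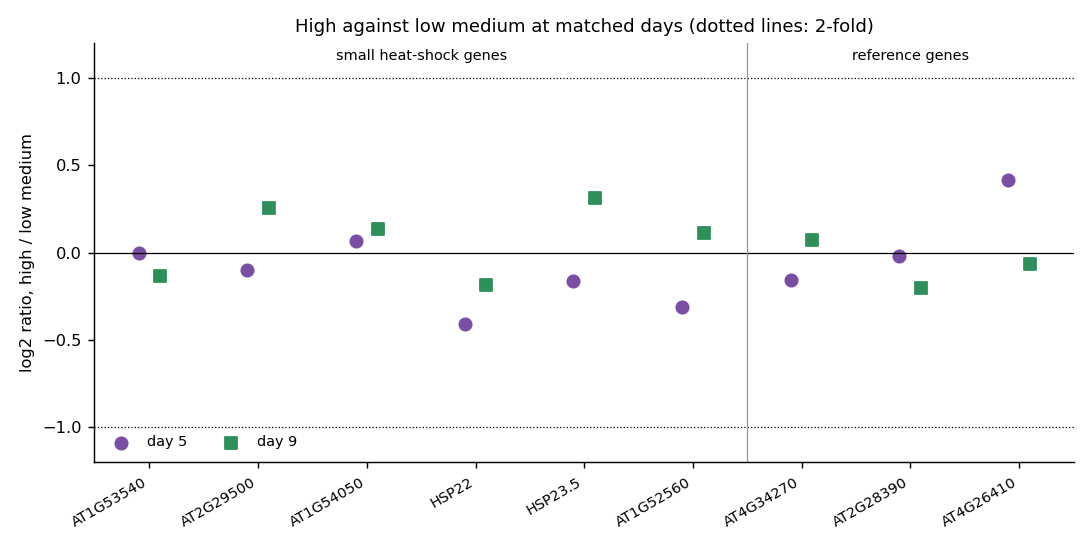
Log2 ratio of high over low medium (vertical axis, dotted lines at 2-fold) for the 6 small heat-shock genes and 3 reference genes, at day 5 (circles) and day 9 (squares), 1 array per medium and day. All points lie within 2-fold; the small heat-shock genes span -0.41 to 0.31 and the reference genes -0.20 to 0.42.

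The 6 genes were chosen on the difference between liquid cultures and callus, so high correlations over the 6 arrays follow largely from that choice. Over the 6 arrays the 15 pairs had Pearson correlations of log2 intensity between 0.930 and 0.998, with a median of 0.981. All pairs share the low callus array, and over the 5 liquid cultures the range widened to 0.551 to 0.992, median 0.960. The lowest pair there was AT1G54050 with HSP22, and the highest AT2G29500 with AT1G52560. The class III gene AT1G54050 had between 0.551 and 0.813 with each of the other 5 genes in the liquid cultures, while the lowest of the pairs without it had 0.912. These correlations describe 5 or 6 arrays with no replicates.

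Of the 1045 other named genes with at least a 2-fold range over the arrays, those most like the mean of the 6 were AT5G10695, AT3G06240, DDL, AT3G10020, AT5G03380, AT5G63190, AT1G02890, AT3G24100, AT3G17740 and AT5G25450. Their Pearson correlations over the 6 arrays, from 0.987 to 0.999, rest largely on the callus array. AT5G10695 was first with 0.999, and 0.996 without callus. This gene read 61.5 in callus, then 592, 1677 and 902 at days 2, 5 and 9 of high medium, and 1884 and 846 at days 5 and 9 of low medium. AT3G10020 had a similar course, 124 in callus, then 750, 1648 and 839 in high medium, and 1815 and 745 in low medium. DDL, an FHA domain protein of microRNA processing, had nearly the same order of arrays (Spearman rho 0.943) within a narrower range, 123.6 to 250.5. Only 1 of the 10 genes remained among the first 10 when callus was left out. By Spearman rank, 35 genes shared the best value of 1, so ranks over 6 arrays do not tell them apart.

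The wider family was measured only in part. Of 20 small heat-shock genes listed, 11 have a probe set of their own, the 6 genes above and 5 others. AT2G19310, a cytosolic form, read 31.2 in callus, then 75.0, 244 and 144 at days 2, 5 and 9 of high medium, and 249 and 98.8 at days 5 and 9 of low medium. AT5G37670, the peroxisomal form, read 14.0 in callus, then 68.0, 140 and 72.2 at days 2, 5 and 9 of high medium, and 224 and 61.6 in low medium. Both were at least 2-fold above callus in all 5 cultures and, like the 6 genes, highest at day 5 in each medium. With the floor at 65.1, the 60th percentile, AT2G19310 no longer passed 2-fold in high medium at day 2 (log2 ratio 0.20) and low medium at day 9 (0.60). AT5G37670 then missed 2-fold on days 2 and 9 of high medium (0.06 and 0.15), and its low-medium signal at day 9 lay at that floor, as did callus.

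The signals of the other 3 genes lay near or below the background. AT5G47600 was 68.0 and 67.1 at days 5 and 9 of low medium, at least 2-fold above callus, while in high medium it lay below the floor on the same days (22.1 and 20.1) and read 35.7 at day 2. Its log2 ratio of high over low medium was at most -1.46 at day 5 and at most -1.44 at day 9. These values lie near the background: with the floor at 65.1 the log2 ratios to callus in low medium were 0.06 and 0.04, and AT5G47600 no longer passed 2-fold in any comparison. AT4G21870 reached 25.4 in high medium at day 9 and lay below the floor on the other 5 arrays, and AT5G54660 lay below it on all 6, so no ratio can be read for either. One probe set matched 2 small heat-shock genes of the list at once. It read 14.7 in callus, then 991, 2476 and 1325 at days 2, 5 and 9 of high medium, and 2574 and 1118 at days 5 and 9 of low medium. Which of its genes gave the signal cannot be told.

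Of the chaperones that refold what small heat-shock proteins hold, only 4 HSP70 and HSP110 genes were measured. Among the HSP70 and HSP110 genes, 4 of 17 listed have a probe set, and 0 were at least 2-fold higher than callus in any liquid culture. Over all probe sets 1.19% to 1.97% passed that rule upward, so little is read from this count. Nothing is known here of the unmeasured genes of these families. AT3G09440, a cytosolic HSP70, read 1171 in callus, then 771, 1449 and 1177 at days 2, 5 and 9 of high medium, and 1428 and 1125 at days 5 and 9 of low medium. Like the small heat-shock genes it was highest at day 5 in each medium, within a narrower range. As deposited, the 4 genes had log2 ratios of 0.08 to 0.91 from day 2 to day 5 of high medium, median 0.53. Of them 0 passed 2-fold, beside 0.800% of all probe sets. Hsp70-2, another cytosolic form, was the one gene at least 2-fold lower, 173 at day 2 against 352 in callus, a log2 ratio of -1.02. AT1G11660 and AT4G16660, of the HSP110 type, kept within log2 ratios of -0.26 and 0.24. The medians of the 4 genes were -0.37, 0.09 and -0.13 at days 2, 5 and 9 of high medium and -0.07 and -0.08 in low medium. Their signs depend on the scaling: the day 5 median of high medium was -0.67 with equal spike controls, and those of high medium at day 9 and low medium at day 5 were 0.01 and 0.02 with equal reference genes. Equal spike controls also moved the median of all probe sets at day 5 of high medium to -0.73. With equal array medians Hsp70-2 no longer passed 2-fold, while the count of 0 genes at least 2-fold higher held under all 4 other scalings. The heat shock factors, HSP90 genes and HSP100 genes listed have no probe set named here, so they were not analysed. The 1 chaperonin measured, Cpn60beta2 of the plastid, had log2 ratios of -0.30 to 0.67.

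Genes that assist HSP70 and HSP90 were mixed, and several had the day 5 peak of the small heat-shock genes. Of 23 co-chaperone and other heat-response genes listed, 9 were measured. Of these, 4, 7 and 4 were at least 2-fold above callus at days 2, 5 and 9 of high medium, and 7 and 4 at days 5 and 9 of low medium. The shares of all probe sets past that rule upward were 1.60%, 1.84% and 1.40% in high medium and 1.97% and 1.19% in low medium. AT5G48570, a peptidyl-prolyl isomerase that binds HSP90, read 28.9 in callus, then 507, 958 and 399 at days 2, 5 and 9 of high medium, and 1080 and 315 at days 5 and 9 of low medium. Hop3, which links HSP70 to HSP90, read 18.2, below the floor, in callus, then 311, 623 and 323 in high medium, and 886 and 227 in low medium. HSA32, a protein needed for lasting heat tolerance, read 42.5 in callus, then 265, 525 and 190 in high medium, and 728 and 200 in low medium. Hop1, of the same type as Hop3 and named after its values were seen, had log2 ratios of -0.36 to -0.14 and was not among those called. The medians of these 9 genes were 0.75, 1.27 and 0.78 over the days of high medium and 1.29 and 0.66 over those of low medium. These medians stayed above 0 under each scaling. Equal spike controls left 4 of 9 genes at least 2-fold higher at day 5 of high medium. They also put Hop1 at least 2-fold lower there (-1.12). That scaling moved the median of all probe sets there to -0.73, with 0.519% at least 2-fold higher and 17.5% lower.

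Of 12 DnaJ genes listed, whose proteins pass substrates to HSP70, 5 were measured. Among them 1, 4 and 2 were at least 2-fold higher than callus at days 2, 5 and 9 of high medium, and 4 and 1 at days 5 and 9 of low medium. Over all probe sets 1.19% to 1.97% passed that rule upward in these comparisons. AT2G20560 read 31.5 in callus, then 189, 832 and 352 at days 2, 5 and 9 of high medium, and 1067 and 333 at days 5 and 9 of low medium. AT1G71000 lay below the floor in callus and reached 151 and 234 at day 5 of high and low medium. AT3G14200 stayed within a narrower range, 88.1 in callus and at most 206 in low medium at day 5. The list medians were 0.49, 1.26 and 0.76 in high medium and 1.22 and 0.47 in low medium, and equal spike controls left 2 of 5 called at day 5 of high medium. Medians over all probe sets in the same comparisons lay between -0.04 and -0.01.

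Genes of protein folding in the endoplasmic reticulum, where HSP22 works, were measured only in part, and little is read from counts of so few. Of 18 listed, 5 were measured, and 1.19% to 1.97% of all probe sets were at least 2-fold above callus in these comparisons. Of the 5 genes, 0 were at least 2-fold above callus at day 2 and 1 was in each of the other 4 cultures. That gene was BZIP60, a transcription factor of the unfolded protein response, which read 287 in callus, then 493, 714 and 710 at days 2, 5 and 9 of high medium, and 701 and 658 at days 5 and 9 of low medium. Unlike HSP22, BZIP60 at day 9 was nearly as high as at day 5. BZIP28, a second factor of that response, had log2 ratios to callus of 0.45 to 0.96, and CRT1b, a calreticulin, of -0.46 to 0.08. The medians of the 5 genes ran from 0.08 to 0.29 and turned to -0.18, -0.47 and -0.03 at days 2, 5 and 9 of high medium with equal spike controls. The medians of all probe sets were -0.28, -0.73 and -0.20 there under that scaling. That scaling also took BZIP60 to 0.56 at day 5 of high medium, so that 0 genes were called there, while equal array medians took BZIP28 past 2-fold at day 5 of both media (1.02 and 1.01) and equal reference genes took it past in low medium (1.05).

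Stress genes outside protein folding had courses of their own. The dehydrin gene COR47 read 319 in callus, then 80.0, 71.6 and 66.9 at days 2, 5 and 9 of high medium, and 227 and 228 at days 5 and 9 of low medium. LTI30, another dehydrin gene, was at least 2-fold lower than callus in all 5 cultures. GSTU25, a glutathione transferase of the tau class, was also lower in all 5, with log2 ratios of -3.21 to at most -4.63, and AT2G21640, known to respond to oxidative stress, was at least 2-fold higher in 4 of them. The low oxygen genes listed have no probe set named here.

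**Figure D4:**
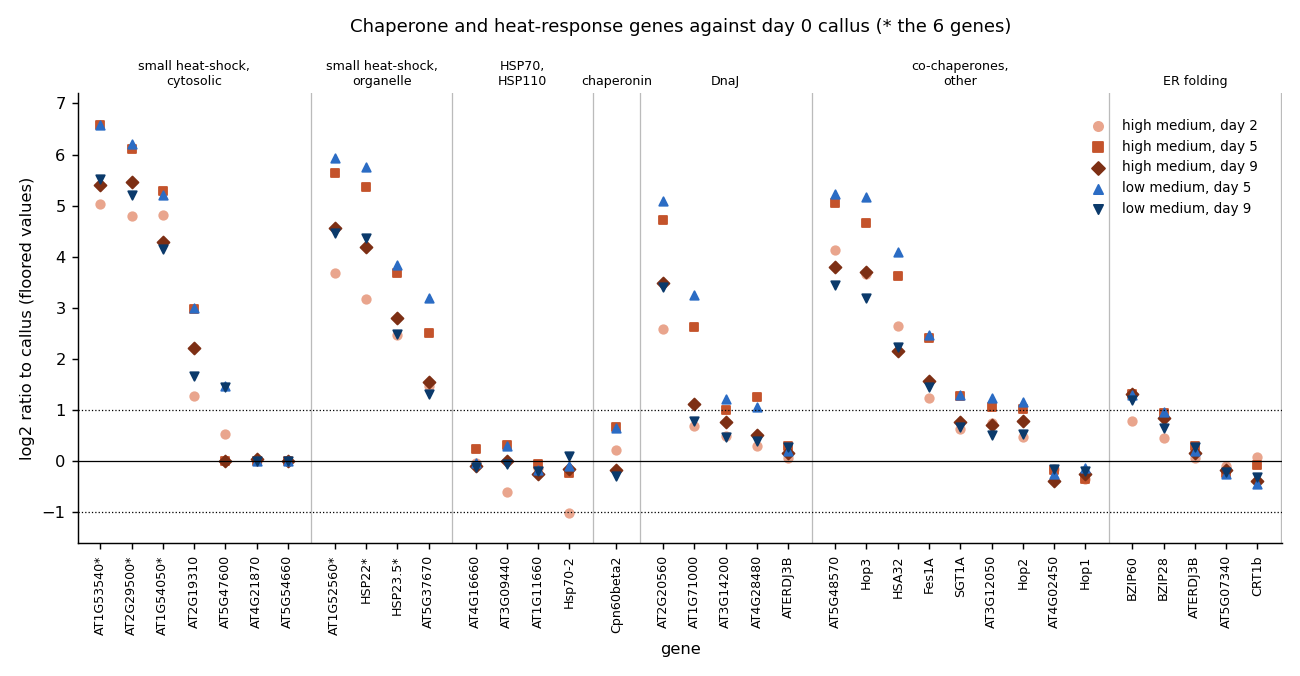
Log2 ratio to day 0 callus (vertical axis, dotted lines at 2-fold) in 5 liquid cultures for the measured genes of 7 lists, small heat-shock genes at the left with the 6 genes starred; ATERDJ3B belongs to both the DnaJ and the ER folding lists, and values below the floor of 24.7 were set to it. The starred genes lie between 2.46 and 6.57, the HSP70 and HSP110 genes between -1.02 and 0.31.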

How the data were processed

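Biotin-labelled cRNA from 6 cultures was hybridised to 1-colour ATH1 arrays, 1 array per condition, per the labels' protocols. The authors deposited 1 intensity for each of 22810 probe sets and array, on a linear scale. Which software they used to summarise and scale them is not given in these sources. Trimmed means (2% off each end, 22746 probe sets that are not controls) agreed within 0.452%, under the limit of 5%, so that scaling was kept.

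Values were floored at 24.7, the 40th percentile of an array (median of the 6), then log2 was taken (Python 3.11.15, numpy 2.4.6, pandas 2.3.3, matplotlib 3.10.9). The calculation was tested on simulated data. With 1 array per condition no test was run, and a call is a difference of at least 2-fold.

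The annotation gives 1 gene for 13513 probe sets, several for 503, and 8730 are unnamed here. Of the single-gene ones, 13436 matched a RefSeq table of assembly TAIR10.1, used for names only. The brightest probe set stood for each of 13286 genes. HSP23.5 was found through its locus, AT5G51440.

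The gene lists, markers and small heat-shock genes included, held 178 loci, 50 of them measured. The text names every measured gene of the small heat-shock and HSP70 lists. Of each other stress or chaperone list it takes names from the 3 largest in mean ratio to callus, plus the 10 most alike. Hop1 was added after its values were seen. Members and lists were chosen with earlier results of these data known. Alternatives changed the floor (20th or 60th percentile), the scaling, the probe set of a gene and the measure of likeness. Planned descriptions of promoters and proteins were not made, and no sequence is given.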

Additional observations from a re-analysis of the deposited data

Results flagged for a closer look

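For 3 genes the log2 ratio of high over low medium was negative at day 5 and positive at day 9. The day 5 ratio minus the day 9 ratio was -0.35 for AT2G29500, -0.48 for HSP23.5 and -0.42 for AT1G52560. The median of the 6 genes had opposite signs on both days too, with a difference of -0.26. These differences were not tested, since each ratio rests on 1 array per medium. No ratio reached 2-fold, and scan background was highest for low medium at day 5; its part was not tested.

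One signal lies outside the probe sets with a gene of their own. A probe set that the annotation assigns to 2 genes of the small heat-shock list was at least 5.33 higher on the log2 scale in each of the 5 liquid cultures than in callus, where it lay below the floor.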

How the results depend on the processing

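In all 5 cultures the 6 genes stayed at least 2-fold above callus under every alternative run, but 4 callus values lie at the floor, which sets the size of the median log2 ratio. With the floor at the 20th percentile, 7.70, it was 4.87, 6.29 and 5.37 at days 2, 5 and 9 of high medium and 6.54 and 5.34 at days 5 and 9 of low medium. With the floor at the 60th percentile, 65.1, it was 2.90, 4.47, 3.58, 4.68 and 3.43 in the same order. Quantile normalization left 2 genes at least 2-fold lower at day 9 than at day 5 in high medium and 3 in low medium. Of all probe sets 0.484% and 0.418% were lower there. Equal reference genes, added after seeing the data, left 2 in high medium, beside 0.308% of all probe sets. Equal spike controls, also added then, gave 4.86 for high medium at day 5 against callus and -0.76 against low medium, with 1 gene past 2-fold. In that comparison between media 4.54% of all probe sets were at least 2-fold lower in high medium. Equal spike controls left 3 genes higher at day 5 than at day 2, 0 lower at day 9 of high medium and 3 lower at day 9 of low medium. The shares of all probe sets there were 0.207%, 0.0835% and 0.233%. Under the same scaling the day 9 median between media turned to -0.14. A day 9 median of 0.12, without the day 5 arrays, stood beside -0.0043 for the mean of both days. Of all calls against callus, 59.3% were higher at day 2 and 54.8% at day 5 of high medium with equal array medians, against 49.3% and 43.4% as deposited and 22.1% and 2.87% with equal spike controls. Calls over all probe sets vary with the floor: at day 5 of high medium 980 and 257 were higher than callus with the lower and higher floors, against 419. The probe set alternative changes nothing, as each gene has 1 probe set. No array could be left out of a condition. No paired analysis was possible because each condition has 1 array, so no replicate numbers can be paired. Day pairs the media, but the change between days is not replicate error.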
